A study of Mus musculus with 6 samples.

Results

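The Toll-like receptors measured here were Tlr1, Tlr2, Tlr3, Tlr4, Tlr6, Tlr7, Tlr8 and Tlr9, together with Cd14, which hands ligand to TLR4, and Myd88, the adaptor that most of these receptors use. The genes were chosen by name: a row of the array was taken where its annotation gave that symbol alone, and all 10 had a row, out of 14860 genes with 1 symbol and 23332 rows in all. Messenger RNA of the left ventricle of male C57BL/6 mice was hybridised to 6 Mouse Exon 1.0 ST arrays, 1 mouse per array, with 2 arrays for each group. The groups were mice 1 week after transverse aortic constriction, in which a ligature narrows the aorta and the left ventricle grows under pressure (1 W TAC), mice 4 weeks after the same operation (4 W TAC), and mice operated on without the constriction (Sham). All mice carried the same strain background with no allele or drug named, ages were not given in the sources used here, and neither was the time from the Sham operation to harvest. A single Sham group served both TAC groups, so the comparisons of 1 W TAC and 4 W TAC with Sham use the same 2 Sham arrays.

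Toll-like receptors are innate immune sensors that recognise microbial molecules and also products of injured cells and matrix. TLR1, TLR2, TLR4 and TLR6 sit at the cell surface, where TLR2 pairs with TLR1 or TLR6 to bind lipopeptides and TLR4 binds lipopolysaccharide with MD-2 (Ly96) and CD14. TLR3, TLR7, TLR8 and TLR9 sit in endosomes and read nucleic acids: double-stranded RNA for TLR3, single-stranded RNA for TLR7 and TLR8, and unmethylated DNA for TLR9. All of them except TLR3, which signals through TRIF (Ticam1), recruit MyD88, and the chain of IRAK kinases and TRAF6 that follows activates NF-kappaB and interferon regulatory factors. In the heart these receptors are known from macrophages and other resident leukocytes, and some of them, TLR4 among them, also from cardiomyocytes and endothelial cells.

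The levels are log2 signals after RMA, a method that corrects background, equalises the arrays and summarises the probes of a gene, and a log2(ratio) is the difference between 2 group means on that scale. A log2 level belongs to its own probes, so levels were compared between arrays and not between genes. Tlr1 and Tlr6 are adjacent, closely related genes, as are Tlr7 and Tlr8, and whether their probes read each other's transcripts was not tested. Pairs of arrays correlated at 0.963 to 0.98, and the median over all rows was 5.35 to 5.43 on every array. Of 8 cardiomyocyte genes 4 had a row, and they lay between 11.02 and 13.28 on all 6 arrays. Some genes of fat were uneven between arrays, Ucp1 of brown fat most of all: its signals were 4.4 and 4.18 in 1 W TAC, 6.35 and 3.96 in 4 W TAC, and 8.21 and 4.19 in Sham. Adipoq, the adipokine gene adiponectin, was high on the same 2 arrays, with 3.74 and 3.91 in 1 W TAC, 5.29 and 3.71 in 4 W TAC, and 5.27 and 3.53 in Sham. Over the 6 fat genes measured, the mean was 5.16 and 5.19 in 1 W TAC, 6.02 and 5.25 in 4 W TAC, and 6.34 and 5.28 in Sham. Cidea, Plin1 and Fabp4 differed by less between the replicates of 4 W TAC and of Sham. Lep went the other way, with 3.2 and 3.33 in 4 W TAC and 2.74 and 3.26 in Sham. The arrays Sham replicate 1 and 4 W TAC replicate 1 thus stood apart for Ucp1 and Adipoq, which carry most of the difference in the mean. They are called the arrays of high fat signal, and medians without them are given with each comparison.

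Promoters from RefSeq (build GRCm38.p6) were found for 7 of the 10 genes, with 9 start sites, each covering 250 bases before and 50 after the start; Tlr4, Tlr7 and Cd14 are named only. They were searched on both strands for GAGGAA, the core that PU.1 binds, because PU.1 (Spi1) is the transcription factor of the macrophage lineage and has a place among the pathway genes below. The core was found at 3 of the 9 start sites, a share near the 28.3% of 32851 promoters of 300 bases. The core GAAANNGA of interferon regulatory factors was found at 4 of the 9, against 21% of those promoters. A match is a description of the letters and not of binding. The 3 promoters that hold the PU.1 core are printed from 5′ to 3′ on the strand of the gene with the core in capitals, as GAGGAA or as its reverse complement TTCCTC. They lie at chr5:64933509-64933808 (minus strand) for Tlr1, at chrX:167264280-167264579 (minus strand) for Tlr8 and at chr9:106222348-106222647 (plus strand) for Tlr9.
Tlr1: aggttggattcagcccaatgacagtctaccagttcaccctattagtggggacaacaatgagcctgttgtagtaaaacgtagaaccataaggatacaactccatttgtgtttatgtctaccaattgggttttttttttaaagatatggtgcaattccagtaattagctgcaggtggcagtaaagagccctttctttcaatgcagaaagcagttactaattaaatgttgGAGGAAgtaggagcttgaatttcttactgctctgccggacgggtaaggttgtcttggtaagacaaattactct
Tlr8: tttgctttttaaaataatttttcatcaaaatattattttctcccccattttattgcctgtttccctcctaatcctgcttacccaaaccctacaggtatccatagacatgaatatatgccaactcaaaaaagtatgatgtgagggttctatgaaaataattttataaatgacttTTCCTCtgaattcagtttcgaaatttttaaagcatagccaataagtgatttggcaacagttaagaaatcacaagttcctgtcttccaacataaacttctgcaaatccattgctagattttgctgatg
Tlr9: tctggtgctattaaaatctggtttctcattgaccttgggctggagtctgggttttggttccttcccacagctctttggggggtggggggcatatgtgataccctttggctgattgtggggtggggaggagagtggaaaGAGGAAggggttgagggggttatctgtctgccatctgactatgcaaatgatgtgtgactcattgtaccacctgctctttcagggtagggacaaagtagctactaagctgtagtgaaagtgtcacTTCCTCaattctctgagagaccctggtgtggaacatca
The Tlr1 and Tlr8 promoters printed each hold a single core and the Tlr9 promoter holds 2, 1 in each orientation. The other start site of Tlr1, at chr5:64932650-64932949, holds no such core. These genes are described with their signals below.

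One week after constriction the Toll-like receptor genes had higher signals than in Sham, with Tlr7 furthest from Sham. All 10 genes had a log2(ratio) above 0, with a median of 0.68 against 0.01 over all genes, and in 9 of them both 1 W TAC arrays lay above both Sham arrays. None of the 10 passed an adjusted p of 0.05 in the limma fit over all rows, in which 0.00429% of rows passed, a single row without a gene symbol of its own. With 2 arrays per group, a p that misses this threshold does not show that signals did not differ. At an unadjusted p under 0.05, 6 of the 10 were higher (Tlr2, Tlr4, Tlr6, Tlr7, Tlr8 and Cd14), against 7.16% of all genes. Groups without overlap, with 1 W TAC above, made up 22.1% of all genes.

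Among the surface receptors, Tlr4 had the largest difference at 1 week. Its signals were 7.4 and 7.77 in 1 W TAC, 7.11 and 7.28 in 4 W TAC, and 6.89 and 6.46 in Sham. Both arrays of each TAC group were above both Sham arrays, and the 1 W TAC arrays were above the 4 W TAC arrays. The log2(ratio) of 1 W TAC to Sham was 0.91 (SE 0.23), a 1.88-fold higher signal, with a limma adjusted p of 0.259. Cd14, whose product passes lipopolysaccharide to TLR4, had signals of 5.41 and 5.74 in 1 W TAC, 4.94 and 5.2 in 4 W TAC, and 4.62 and 5.14 in Sham. Here the 1 W TAC arrays stood above all others, while 4 W TAC and Sham overlapped. Its log2(ratio) at 1 week was 0.7 (SE 0.25), 1.62-fold, with an adjusted p of 0.381. Ly96, the partner that completes the TLR4 receptor, was not among the genes at an unadjusted p under 0.05: its signals were 6.05 and 6.47 in 1 W TAC, 6.5 and 5.57 in 4 W TAC, and 6.17 and 5.76 in Sham, and the 3 groups overlapped.

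Tlr2, the common partner of the lipopeptide receptors, had signals of 5.55 and 6.08 in 1 W TAC, 5.4 and 5.53 in 4 W TAC, and 5.22 and 5.07 in Sham. The groups followed each other without overlap, 1 W TAC highest and Sham lowest. The log2(ratio) at 1 week was 0.67 (SE 0.23), 1.59-fold, with an adjusted p of 0.355. Tlr6 had low signals, with 3.5 and 3.93 in 1 W TAC, 3.42 and 3.71 in 4 W TAC, and 3.19 and 2.98 in Sham. On the Sham arrays they lay below the lower quartile of all rows, 3.66 and 3.61, so its ratios rest on values near the low end. The TAC groups overlapped each other and both stood above Sham. Its 1 W TAC log2(ratio) was 0.63 (SE 0.22), with an adjusted p of 0.379. Tlr1 had the largest spread within groups of the surface receptors: 4.79 and 5.59 in 1 W TAC, 5.11 and 4.41 in 4 W TAC, and 4.37 and 4.49 in Sham. The 1 W TAC arrays were above Sham, but the 4 W TAC arrays reached across both groups, and the log2(ratio) of 0.76 at 1 week (SE 0.35) had an adjusted p of 0.507. Tlr2 is also on the study's list of genes upregulated in hypertrophy. Its selection asked for a consistent direction across several sets of 1 W TAC arrays. The arrays used here were among them, so the list is only in part independent of these values. The same listing placed Cd14 among genes that rise in development with no significant change in hypertrophy.

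Of the endosomal receptors, Tlr7 stood out on the 1 W TAC arrays. Its signals were 6.52 and 7.45 in 1 W TAC, 5.25 and 4.86 in 4 W TAC, and 5.45 and 5.23 in Sham. Both 1 W TAC arrays were more than a log2 unit above every other array, and 4 W TAC and Sham overlapped. The 1 W TAC log2(ratio) was 1.64 (SE 0.34), a 3.13-fold higher signal, and ranked 99 of 14860 genes, so that 0.659% of genes had a higher ratio. In the fit over all rows its adjusted p was 0.206. Its call depended on which rows were tested: the adjusted p was 0.0434 when the fit was limited to genes with 1 symbol and 0.0475 when it was limited to rows with a mean log2 signal of 5 or more. Limiting the rows to genes with 1 symbol also brought the prior degrees of freedom of the fit to 4.67, against 2.68 over all rows. The difference also leaned on 1 array, with a log2(ratio) of 1.18 without 1 W TAC replicate 2 and 2.11 without 1 W TAC replicate 1.

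Tlr8, the neighbour of Tlr7 on the X chromosome, had signals of 3.93 and 4.2 in 1 W TAC, 3.19 and 3.95 in 4 W TAC, and 3.33 and 3.03 in Sham. The 1 W TAC arrays were above Sham, and 1 of the 4 W TAC arrays lay at the level of each group. As for Tlr6, the Sham signals lay below the lower quartile of all rows, 3.66 and 3.61 on those arrays. The log2(ratio) at 1 week was 0.88 (SE 0.3), 1.85-fold, with an adjusted p of 0.354. Tlr9, the DNA sensor, had 5.89 and 6.51 in 1 W TAC, 5.7 and 5.52 in 4 W TAC, and 5.74 and 5.79 in Sham. The 3 groups did not overlap and 4 W TAC was the lowest of them, with a log2(ratio) to Sham of -0.16. The 1 W TAC log2(ratio) was 0.43 (SE 0.24), with an adjusted p of 0.594. Tlr3, the receptor that does not use MyD88, was the exception to the separation: its signals were 6.1 and 6.46 in 1 W TAC, 6 and 6.24 in 4 W TAC, and 6.21 and 5.7 in Sham, and Sham replicate 1 lay above 1 W TAC replicate 1. Its log2(ratio) of 0.32 (SE 0.25) was the smallest of the 10 at 1 week.

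Myd88 had the smallest SE of the 10 genes, and its signals were 7.72 and 8 in 1 W TAC, 7.41 and 7.56 in 4 W TAC, and 7.35 and 7.55 in Sham. The 1 W TAC arrays were highest, and 4 W TAC could not be separated from Sham. The log2(ratio) at 1 week was 0.41 (SE 0.19), 1.33-fold, with an adjusted p of 0.503.

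**Figure D1:**
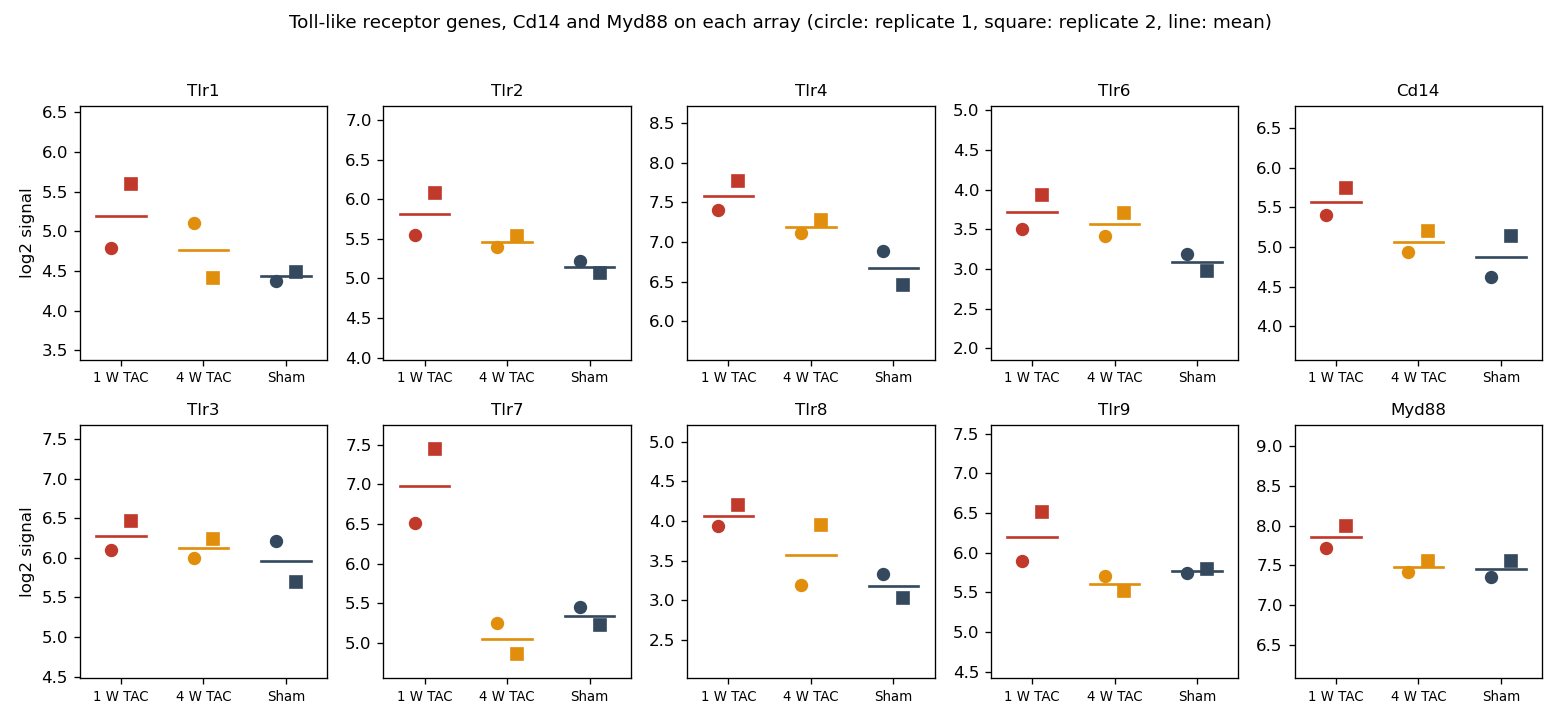
Log2 signal of each Toll-like receptor gene, Cd14 and Myd88 on the 6 arrays, with groups from left to right 1 W TAC, 4 W TAC and Sham, points for arrays and bars for the mean of 2. The 1 W TAC points of Tlr7, at 6.52 and 7.45, sit above all its other points, and Tlr3 is the gene in which 1 W TAC and Sham overlap.

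In all 10 genes replicate 2 of 1 W TAC had the higher signal of the pair, as it had in 62.6% of all genes. Without that array the median log2(ratio) at 1 week was 0.41 and 1 of the genes was at an unadjusted p under 0.05, and without 1 W TAC replicate 1 the median was 0.9 with 7 such genes. Dropping both arrays with a high fat signal left 1 Sham array. The median was then 0.72. Separation from 1 array is easier to reach and is not counted here.

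At 4 weeks after constriction the genes lay nearer to Sham. Their median log2(ratio) was 0.26 against 0.04 over all genes, and 8 of the 10 ratios were above 0. None passed an adjusted p of 0.05 in the limma fit, in which 0% of all rows passed, and 0 of the 10 were higher at an unadjusted p under 0.05, against 2.42% of all genes. Both 4 W TAC arrays were above both Sham arrays in 3 genes (Tlr2, Tlr4 and Tlr6), all of them surface receptors, against 17.3% of all genes, and below them in 1 gene (Tlr9), against 12.9%. The median was 0.41 over the 4 surface receptors and 0 over the 4 endosomal receptors, a description to which no test was applied. Tlr4 had the largest log2(ratio), 0.52 (SE 0.23, 95% interval -0.05 to 1.09), with an adjusted p of 0.911. Tlr6 followed at 0.48 (SE 0.22) with an adjusted p of 0.932, and Tlr8 at 0.39 (SE 0.3) with 0.97. Tlr2 and Tlr1, the lipopeptide pair, had 0.32 and 0.33. Tlr7 had a ratio of -0.29 (SE 0.34, 95% interval -1.13 to 0.56), and Myd88 one of 0.04 (SE 0.19). With both arrays of high fat signal dropped, 1 array was left in 4 W TAC and 1 in Sham. The median was again 0.26, and the ratio of Tlr1 was -0.08. With 1 array against 1, the 7 genes above Sham are those with a ratio above 0, to be read against the 8 such ratios on all arrays.

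The later group was lower than the earlier one in every gene of the set. Between 4 W TAC and 1 W TAC all 10 log2(ratio) values were below 0, with a median of -0.41 against 0.01 over all genes. None passed an adjusted p of 0.05 in the limma fit, where 0% of all rows passed. Tlr7 was the 1 gene lower at an unadjusted p under 0.05, against 3.33% of all genes, and 6 genes (Tlr2, Tlr4, Tlr7, Tlr9, Cd14 and Myd88) had both 4 W TAC arrays below both 1 W TAC arrays, against 16.6% of all genes. For Tlr7 the log2(ratio) was -1.93 (SE 0.34, 95% interval -2.78 to -1.08), a 3.81-fold lower signal in 4 W TAC, with an adjusted p of 0.531. It ranked 14850 of 14860 genes from the highest ratio to the lowest. Tlr9 had a ratio of -0.59 (SE 0.24, adjusted p 0.771) and Cd14 one of -0.51 (SE 0.25, adjusted p 0.818). Tlr3 and Tlr6 were nearest to 0, at -0.16 and -0.15. Without both arrays of high fat signal, which left 1 array in 4 W TAC, the median was -0.3. In 7 genes that array lay below both 1 W TAC arrays. These values use the 1 W TAC arrays as the comparison with Sham does, so the 2 sets of ratios are not separate measurements of a peak at 1 week.

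**Figure D2:**
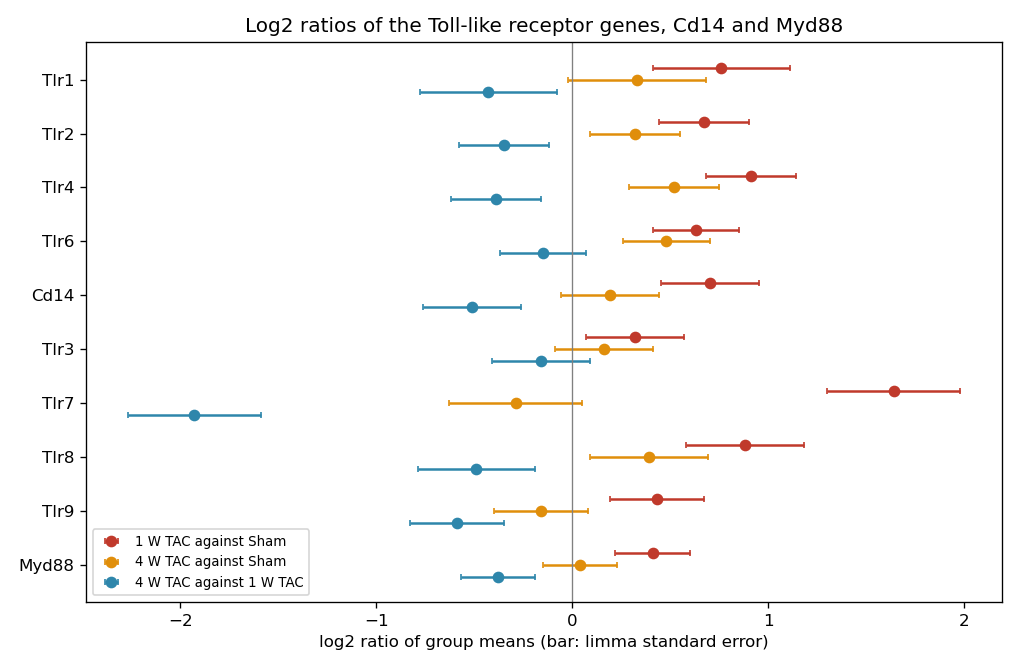
Log2(ratio) of each gene with a bar for its limma standard error. The 3 colours give each TAC group relative to Sham and 4 W TAC relative to 1 W TAC. All 10 points lie above 0 for 1 W TAC relative to Sham. They lie below 0 for 4 W TAC relative to 1 W TAC, where Tlr7 is at -1.93.

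The other genes of the pathway were taken from lists by role, and 81 of 94 had a row with 1 symbol. None of them passed an adjusted p of 0.05 in the limma fit at any of the 3 comparisons, and at an unadjusted p under 0.05 the counts are given by role, to be read against 7.16% of all genes higher and 4.87% lower at 1 week and 2.42% higher at 4 weeks. In the fit limited to genes with 1 symbol, 210 of 14860 genes passed as higher and 65 as lower at 1 week, with Ly86, Tlr13, Fn1, Tnc, Bgn and Spi1 among those higher. The genes named from each list were those with its largest ratios at 1 week, so their passing is in part fixed by that choice. Of 13 other receptors and accessory proteins, 4 were higher and 1 was lower in 1 W TAC than in Sham, the lower count being near the 4.87% of all genes, and the median log2(ratio) was 0.29. Ly86, which encodes MD-1, the partner of the receptor relative RP105, had signals of 8.54 and 9.27 in 1 W TAC, 7.7 and 6.86 in 4 W TAC, and 6.72 and 6.99 in Sham. Its 1 W TAC log2(ratio) was 2.05 (SE 0.37) with an adjusted p of 0.18, larger than that of any gene of the main set. Tlr13, a mouse endosomal receptor for bacterial ribosomal RNA, had 6.32 and 6.7 in 1 W TAC, 4.86 and 5.65 in 4 W TAC, and 5.01 and 4.57 in Sham, a ratio of 1.72 (SE 0.33, adjusted p 0.191). As with Tlr7, the 1 W TAC arrays stood apart and 4 W TAC overlapped Sham. Unc93b1, which escorts the endosomal receptors from the endoplasmic reticulum, had 7.32 and 7.95 in 1 W TAC, 6.53 and 7.07 in 4 W TAC, and 6.71 and 6.51 in Sham, a ratio of 1.03 (SE 0.29, adjusted p 0.29).

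The endogenous ligands, molecules of injured cells and matrix reported to engage TLR2 or TLR4, had a median of 0.51 at 1 week and 0.28 at 4 weeks, and 5 of 11 were higher at an unadjusted p under 0.05 at each time. Those with the largest ratios were matrix proteins. Fibronectin (Fn1) had 11.32 and 11.77 in 1 W TAC, 9.29 and 9.86 in 4 W TAC, and 8.06 and 7.94 in Sham, a 1 W TAC log2(ratio) of 3.54 (SE 0.27, adjusted p 0.0587). Tenascin C (Tnc) had 7.86 and 8.28 in 1 W TAC, 5.64 and 5.86 in 4 W TAC, and 4.75 and 4.87 in Sham, a ratio of 3.26 (SE 0.21, adjusted p 0.0547). Biglycan (Bgn), a proteoglycan, had 11.28 and 11.57 in 1 W TAC, 10.54 and 11.14 in 4 W TAC, and 9.67 and 9.56 in Sham, a ratio of 1.81 (SE 0.25, adjusted p 0.141). All 3 had both 4 W TAC arrays above both Sham arrays, as had Tlr2, Tlr4 and Tlr6 of the receptor set.

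The adaptors and proximal kinases stayed near 0. Their median was -0.08 at 1 week and 0.03 at 4 weeks, and 0 of 13 were at an unadjusted p under 0.05 in any comparison. Ticam1, the TRIF adaptor of TLR3, had a 1 W TAC log2(ratio) of 0.05 (SE 0.24), Tirap, which bridges MyD88 to TLR2 and TLR4, one of 0.3 (SE 0.24), Ikbke, a kinase upstream of interferon factors, one of 0.3 (SE 0.19), and Irak1 one of -0.19 (SE 0.17). Of 11 transcription factors, 4 were higher at an unadjusted p under 0.05 at 1 week, with a median of 0.35. Irf7, the interferon regulatory factor downstream of TLR7 and TLR9, had 7.08 and 8.01 in 1 W TAC, 6.19 and 6.3 in 4 W TAC, and 6.26 and 6.26 in Sham, a ratio of 1.28 (SE 0.32, adjusted p 0.25). Spi1 (PU.1) had 6.2 and 6.68 in 1 W TAC, 5.5 and 5.39 in 4 W TAC, and 5.47 and 5.32 in Sham, a ratio of 1.04 (SE 0.21, adjusted p 0.203). Irf8, a factor of monocyte and macrophage development, had a ratio of 0.93 (SE 0.19, adjusted p 0.206).

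Of 13 negative regulators 1 was higher at 1 week, a share near the 7.16% of all genes, and the median was 0.03. Socs3, the suppressor of cytokine signalling, had a 1 W TAC log2(ratio) of 0.62 (SE 0.24, adjusted p 0.432), while Dusp1, a phosphatase of MAP kinases, had -0.31 (SE 0.2) and Nfkbie, an NF-kappaB inhibitor, had 0.26 (SE 0.27). All 20 target genes were measured, and 6 were higher at an unadjusted p under 0.05 at 1 week, with a median of 0.31. The chemokine Cxcl10 had 7.01 and 8.03 in 1 W TAC, 6.19 and 5.83 in 4 W TAC, and 5.33 and 6 in Sham, a ratio of 1.85 (SE 0.41, adjusted p 0.22). Ccl3, which attracts monocytes, had a ratio of 1.75 (SE 0.46, adjusted p 0.267), and Ccl5, which attracts T cells and monocytes, one of 1.57 (SE 0.46, adjusted p 0.299). The 3 chemokines varied between the 1 W TAC arrays by more than a log2 unit, with replicate 2 the higher in each. At 4 weeks 1 target gene was higher at an unadjusted p under 0.05, and the median was 0.14.

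**Figure D3:**
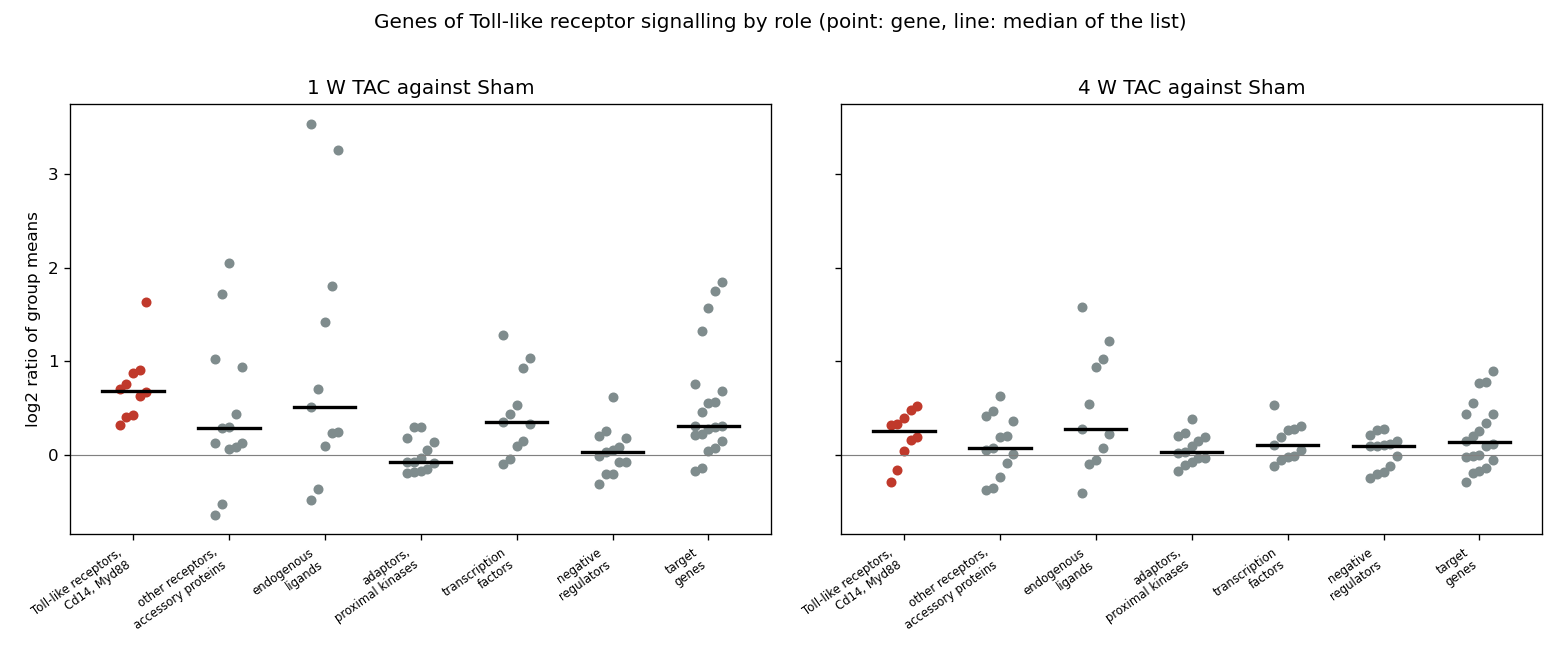
Log2(ratio) of the Toll-like receptor set and of the genes of each pathway role, for each TAC group relative to Sham. Points are genes and lines are medians. At 1 week the median of the receptor set was 0.68 and that of the adaptors and proximal kinases was -0.08.

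Whole ventricle was measured, so a higher signal per cell and more cells that carry the transcript cannot be told apart. Most macrophage markers moved with the receptor set. Over 13 of 14 markers with a row, the mean log2 signal was 7.19 and 7.62 in 1 W TAC, 6.43 and 6.66 in 4 W TAC, and 6.38 and 6.18 in Sham, and the median log2(ratio) was 1.24 at 1 week and 0.32 at 4 weeks. At an unadjusted p under 0.05, 11 of the 13 were higher in 1 W TAC than in Sham, against 7.16% of all genes. Cd163 and Mertk were not among them, with a log2(ratio) of 0.01 and 0.29. Between 4 W TAC and 1 W TAC, 9 were lower, against 3.33% of all genes. The mean of the 10 receptor genes, on the same scale, was 5.68 and 6.17 in 1 W TAC, 5.35 and 5.43 in 4 W TAC, and 5.24 and 5.14 in Sham, highest on the same array as the macrophage mean. Of 5 monocyte markers 3 had a row, with a median log2(ratio) of 0.13 at 1 week. Ccr2, the receptor that brings monocytes into tissue, had 2.13, while Chil3 had 0.13 and Plac8 had 0.1. The signals of Chil3 and Plac8 lay below the lower quartile of all rows on every array, so their ratios say little about monocytes. The part of macrophage number in the receptor signals was not tested.

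The mean over neutrophil markers differed little between arrays, and Ly6g had no row. Over 10 of 11 it was 3.79 and 3.79 in 1 W TAC, 3.71 and 3.79 in 4 W TAC, and 3.74 and 3.79 in Sham. None was at an unadjusted p under 0.05 in any comparison. Single markers ran from 1.59 to 5.63. Several, Retnlg, S100a8 and Ngp among them, lay below the lower quartile of all rows on every array, so their flat values say little about neutrophils. No marker of B cells, of T and NK cells or of dendritic cells was at an unadjusted p under 0.05 in 1 W TAC against Sham. The endothelial mean was 8.57 and 8.55 in 1 W TAC, 8.73 and 8.87 in 4 W TAC, and 8.78 and 8.57 in Sham. Fibroblast markers were higher in both TAC groups, with a mean of 10.35 and 10.65 in 1 W TAC, 9.36 and 9.71 in 4 W TAC, and 8.47 and 8.41 in Sham. That list includes collagens and periostin, which fibroblasts make in quantity when activated, and its part in the ratios of the matrix ligands was not tested.

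**Figure D4:**
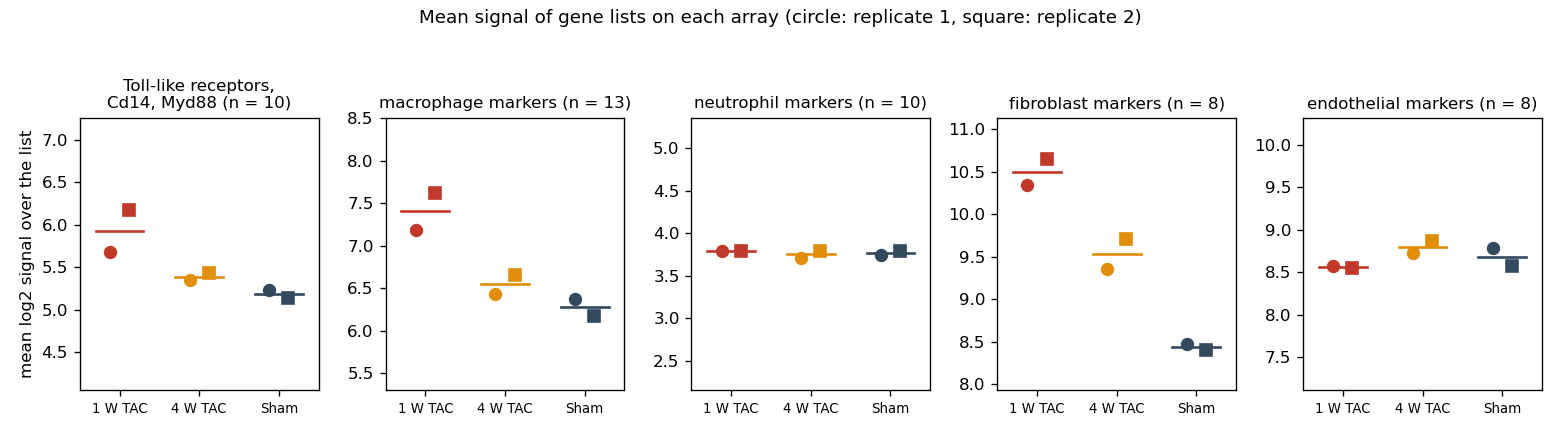
Mean log2 signal over the Toll-like receptor set and over macrophage, neutrophil, fibroblast and endothelial markers on each of the 6 arrays. Groups from left to right are 1 W TAC, 4 W TAC and Sham. The receptor set and the macrophage markers are highest on the 1 W TAC arrays, at 6.17 and 7.62 on replicate 2, and the neutrophil means stay between 3.71 and 3.79.

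For the 3 receptor genes furthest from Sham at 1 week, the genes most alike in profile were found by the root mean square difference over the 6 arrays after each gene was centred on its own mean. Nearest to Tlr7 was Cnn1, the calponin of smooth muscle, at 0.11, with 7.32 and 8.04 in 1 W TAC, 5.97 and 5.8 in 4 W TAC, and 6.34 and 6 in Sham. Clec4n and Clec12a, C-type lectin receptors of myeloid cells, came next at 0.22 each. Over 6 markers of smooth muscle and pericytes the mean was 8.69 and 8.72 in 1 W TAC, 8.82 and 8.85 in 4 W TAC, and 8.87 and 8.6 in Sham, and did not share the pattern of Cnn1. Nearest to Tlr4 were Anxa4 at 0.05, a membrane-binding annexin, then Axl, a receptor for apoptotic cells, and Niban1 at 0.06. Tlr8 was nearest to Vim, an intermediate filament protein, Tgfbr1, a receptor of TGF-beta, and Mrc1, the macrophage mannose receptor, each at 0.08. With 6 arrays in 3 groups, such likeness rests mostly on the 3 group means.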

How the data were processed

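Left ventricular RNA was extracted with Trizol per the labels and with a column kit per the study's methods. The deposited values are log2 gene-level signals that the authors made with RMA in Affymetrix Expression Console, while the software version, genome build and annotation release were not stated in what was read here. The authors' filter on probe detection was not repeated. Each gene was represented by its row with 1 symbol and the highest mean over 6 arrays. Of 23332 rows, 14996 had 1 symbol, 1019 had several and 7317 had none. All rows were fitted with limma 3.58.1 (R 4.3.3) on group means (residual df 3, prior df 2.68), moderated by eBayes, with Benjamini-Hochberg adjustment over all rows at 0.05. The fit was tested on simulated data. Arrays of a group were separate mice, and 2 per group limit the precision. The labels do not say whether equal replicate numbers belong together, and the main fit did not pair them. Deviations of equal numbers correlated at -0.15, -0.17 and 0.08 between groups, which does not show whether arrays shared a batch.

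Members, lists and alternatives were chosen with earlier results of these data known. Genes were named by rule: all 10 members, the 3 genes of each pathway list with the largest absolute ratio at 1 W TAC, the direct partners Ly96, Ticam1, Tirap and Unc93b1, and the 3 nearest profiles of the 3 members furthest from Sham at 1 week. Alternatives comprised the replicate block, other filters, normalizations and moderation settings, a t-test and leaving out arrays. The t-test used the fold limit that the study set for splicing factors, and the study's methods name no t-test for genes at large. Figures were drawn with matplotlib 3.10.9 in Python 3.11.15. Promoter sequences and gene neighbours came from RefSeq.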

Additional observations from a re-analysis of the deposited data

Results flagged for a closer look

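Tlr9 stood on opposite sides of Sham at the 2 times: both 1 W TAC arrays were above both Sham arrays, with a log2(ratio) of 0.43, and both 4 W TAC arrays were below them, with a log2(ratio) of -0.16. The 4-week gap was narrow, with 5.7 and 5.52 in 4 W TAC and 5.74 and 5.79 in Sham, and a limma adjusted p of 0.984. Groups without overlap made up 22.1% of all genes above Sham at 1 week and 12.9% below it at 4 weeks. The difference between 4 W TAC and 1 W TAC was -0.59, with a limma adjusted p of 0.771, so it did not pass the threshold.

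Cnn1, the gene nearest to Tlr7 in profile, showed the same arrangement. Its log2(ratio) was 1.51 in 1 W TAC and -0.29 in 4 W TAC, the latter with a limma adjusted p of 0.98. The difference between 4 W TAC and 1 W TAC was -1.79 with an adjusted p of 0.531.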

How the results depend on the processing

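Over 531 recomputed ratios of the Toll-like receptor genes, 521 kept their direction and side of the threshold, 2 passed it in addition (Tlr7 at 1 week, with only genes of 1 symbol and with only rows of a mean log2 signal of 5 or more), and 8 changed sign, 0 of them in 1 W TAC against Sham. Rows past the adjusted threshold at 1 week numbered 1, and 0 with the replicate block, which changed no call of a named gene. They numbered 0 in a fit of the 2 groups compared, 275 with only genes of 1 symbol and 264 with the signal filter. There were 14 with an intensity trend, 3 with arrays centred on their median and 4 with quantile normalization repeated. The t-test with its fold limit selected 829 before adjustment (2 after Benjamini-Hochberg, none of the 10 genes among them). Against 0 rows at 4 weeks, 1 symbol and the signal filter each gave 1 and the t-test 326, and against 0 rows between 4 W TAC and 1 W TAC they gave 2, 2 and 355, with 1 after centring. The block with the Sham numbers crossed, chosen after seeing the data, gave 0 rows at 1 week and 2 receptor genes higher at an unadjusted p under 0.05 at 4 weeks.

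Counts of the 10 genes at an unadjusted p under 0.05 were 6 at 1 week, and 8 with only genes of 1 symbol. They were 4 with the signal filter, which left out some of the 10, and 5 with the Sham numbers crossed. The t-test, which also asked for its fold limit, gave 1 (Tlr8). At 4 weeks the counts were 0, 2 with 1 symbol, 1 with the signal filter and 2 with quantile normalization. Between 4 W TAC and 1 W TAC the count was 1, with 2 for 1 symbol, the signal filter and the trend, 3 for quantile normalization and 0 by the t-test. Leaving out Sham replicate 1 and 4 W TAC replicate 1 left 1 array against 1 at 4 weeks, where 7 genes had a ratio above 0. Signs turned for Ticam1 at 1 week (-0.01 with quantile normalization) and, without those 2 arrays, for Nfkbie (-0.05), Ucp1 (0.1) and, at 4 weeks, Tlr1 (-0.08). Except for changes in how many rows or arrays were used, the cause was not tested.

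Leaving out 1 array at a time gave 0 to 1 rows at 1 week and 0 to 0 at the other comparisons. Medians of the 10 genes ran from 0.41 (without 1 W TAC replicate 2) to 0.9 at 1 week, 0.05 (without 4 W TAC replicate 2) to 0.33 at 4 weeks, and -0.62 to -0.22 between them. Each such fit leaves 1 array in a group, which makes separation easier to reach, so genes without overlap are not counted here. At 1 week the ranges that crossed 0 were -0.05 to 0.58 for Nfkbie, -0.17 to 0.27 for Ticam1 and -3.92 to 0.1 for Ucp1. At 4 weeks they were -0.02 to 0.68 for Tlr1, -0.09 to 0.42 for Tlr3 (0.54 without those 2 arrays), -0.07 to 0.45 for Cd14 and -0.07 to 0.13 for Myd88. Between 4 W TAC and 1 W TAC they were -0.34 to 0.02 for Tlr3 and -0.37 to 0.06 for Tlr6.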
